A study of Bos indicus x Bos taurus with 45 samples.

Results

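The microRNAs (miRNAs) of 2 organs, liver and skeletal muscle, were compared within the same control bovine fetuses. The 8 libraries are those that the labels number control 1 to 4 in each tissue, taken as 4 fetuses with both organs sampled, out of 45 small RNA libraries in the series. All fetuses were crosses of Bos indicus and Bos taurus collected at about day 105 of gestation, and controls were conceived by artificial insemination, with no further treatment named. The labels of the tongue libraries give control 1 to 4 as female. Each library was made from a piece of frozen tissue, so hepatocytes, muscle fibres, blood, vessels and connective tissue were read together. A second set of 8 libraries, liver and muscle of LOS 1 to 4, came from fetuses conceived by assisted reproduction with large offspring syndrome, a ruminant overgrowth condition. It is used below only to repeat the tissue comparison in other animals and to test whether the tissue difference changed in LOS.

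miRNAs are short RNAs that guide Argonaute proteins to messenger RNAs and lower their translation and stability. Each is cut from a hairpin precursor that has a 5p and a 3p arm, and either arm can be kept. A few miRNAs are made almost wholly by 1 cell lineage: miR-122 by hepatocytes, miR-1, miR-133 and miR-206 by muscle fibres, and miR-451 by red cell precursors. The fetal liver is also an organ of blood formation, while fetal skeletal muscle at this stage holds growing fibres, precursor cells and much connective tissue.

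In liver 563 miRNAs were listed and in muscle 439, of which 415 were in both and form the comparison. The control libraries held 3379816 to 3961755 listed reads in liver and 5321105 to 5878392 in muscle. Levels are counts scaled to a library of 1e+06 listed reads (CPM), and scaled CPM are CPM divided by the trimmed-mean scaling factor of the library, which was 1.25 to 1.39 in liver and 0.74 to 0.77 in muscle. Pearson correlations of log2 levels were 0.993 to 0.996 among the liver libraries, 0.989 to 0.995 among the muscle libraries and 0.780 to 0.800 between tissues, over miRNAs that are not independent of each other.

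Most shared miRNAs differed between the organs. Of 415 tested, 353 (85.1%) passed an adjusted p of 0.05 in edgeR's quasi-likelihood test with the fetus as a block: 186 (44.8%) were higher in liver and 167 (40.2%) higher in muscle. In 348 of the 353, all 4 fetuses had the same direction, and in 330 of the 415 (79.5%) the 4 liver values did not overlap the 4 muscle values. The test against a difference of 2-fold kept 196 miRNAs (47.2%), of which 92 (22.2%) were higher in liver and 104 (25.1%) higher in muscle. The median absolute difference was 1.17 on the log2 scale, 103 miRNAs differed over 4-fold, and 21 over 16-fold, 8 of them higher in liver and 13 in muscle. The split between the directions depends on the scaling: with total listed reads alone, the median of all differences moved by 0.80 towards liver and the split was 258 to 113. Differences below are liver minus muscle on the log2 scale with the standard error (SE) of the edgeR fit, and a call means an adjusted p under 0.05 over all 415. The value after ± is the standard deviation (SD) over 4 libraries for a level and the SE for a difference.

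**Figure D1:**
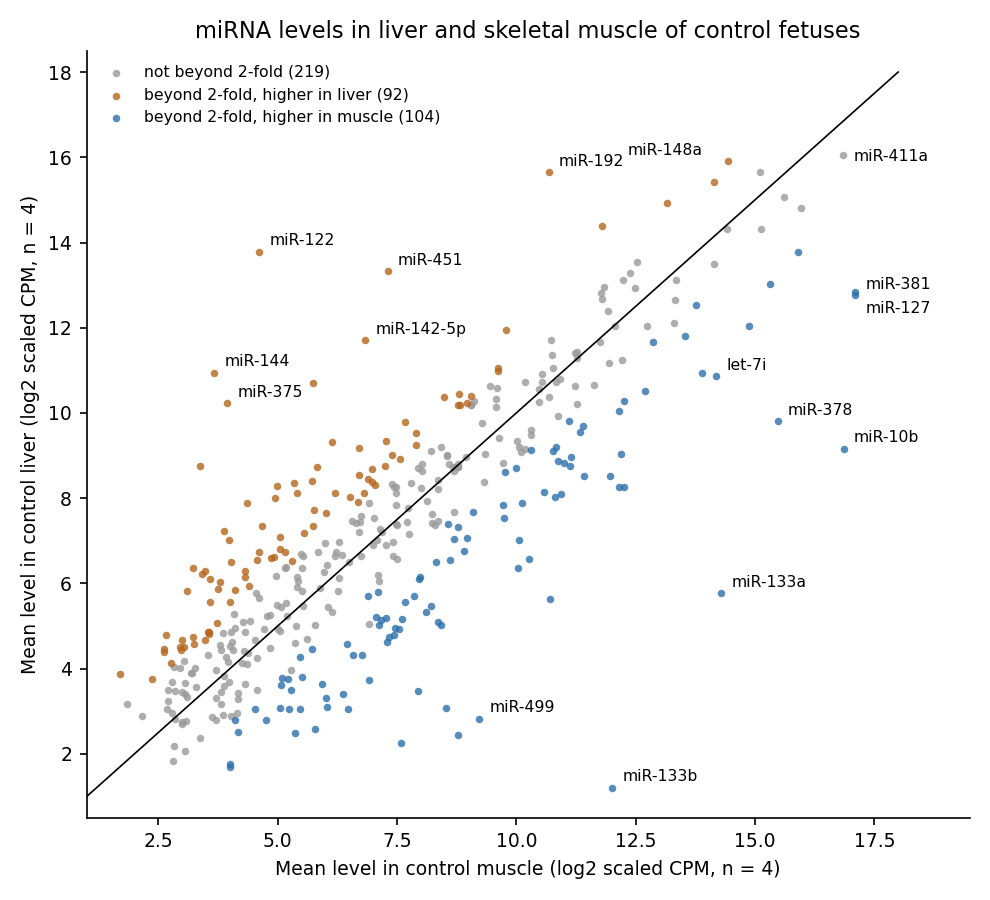
Mean level of each of the 415 shared miRNAs in control muscle (x axis) and control liver (y axis), in log2 scaled CPM over 4 libraries each, with the line of equal levels. The 92 miRNAs beyond 2-fold higher in liver lie above the line and the 104 higher in muscle below it; miR-122, miR-144 and miR-375 lie farthest above it and miR-133b, miR-133a and miR-10b farthest below.

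The 5 most abundant miRNAs made up 36.4 ± 0.198% (SD, n = 4) of the listed reads in liver and 44.1 ± 1.60% in muscle. In liver they were miR-411a with 8.99 ± 0.256%, miR-148a with 8.06 ± 0.220%, miR-143 with 6.83 ± 0.503%, miR-192 with 6.78 ± 0.516% and miR-92a with 5.76 ± 0.203%. In muscle they were miR-381 with 10.7 ± 0.0450%, miR-127 with 10.7 ± 1.29%, miR-10b with 9.00 ± 0.757%, miR-411a with 8.90 ± 0.540% and miR-26a with 4.84 ± 1.04%. miR-411a was thus among the first 5 in both organs, and its fitted difference of -0.78 ± 0.07 (edgeR adjusted p 1.89e-05) came to 0.02 when no scaling was applied.

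The largest difference towards liver belonged to miR-122, which in hepatocytes acts on lipid and cholesterol metabolism. It stood at 13054, 15639.8, 14296 and 13418 scaled CPM in the livers of controls 1 to 4 and at 40.0, 29.0, 7.18 and 21.3 in their muscles. The 4 livers were close to each other, and the muscle values spanned several-fold among themselves, with control 3 lowest and far below every liver. The difference was 9.27 ± 0.40 (edgeR adjusted p 1.95e-07). The second largest was that of miR-144, and miR-375 and miR-451 came next. miR-144, which is processed from the same transcript as miR-451, measured 2049.8, 2224, 1949 and 1682 scaled CPM in liver against 11.0, 13.6, 12.0 and 14.0 in muscle (7.28 ± 0.13, edgeR adjusted p 7.07e-09). miR-451, which is matured by Argonaute 2 and needed for red cell formation, measured 10307, 11148, 10644 and 8961 against 94.2, 190.3, 183 and 165 (6.06 ± 0.20, edgeR adjusted p 5.43e-08). Muscle control 1 was lowest for both, and no liver value came near the muscle values. miR-375, best known from pancreatic islets and other secretory epithelia, measured 1093, 1215, 1082 and 1407 in liver and 11.7, 12.4, 9.58 and 27.5 in muscle, where control 4 stood above the other 3 (6.36 ± 0.20, edgeR adjusted p 5.05e-08).

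miR-192 and miR-194, which are made from shared transcripts in liver, gut and kidney, differed by nearly equal amounts. miR-192 measured 45478, 55562, 57385 and 47602 scaled CPM in the 4 livers and 1692, 1766, 1752 and 1343 in the 4 muscles (4.98 ± 0.10, edgeR adjusted p 7.17e-09), and miR-194 1672 ± 215 against 53.8 ± 12.2 (SD, n = 4 each), a difference of 4.97 ± 0.12. miR-142, a miRNA of blood cells, was high in liver on both arms: the 3p arm measured 432 ± 33.7 against 10.4 ± 1.12 (5.38 ± 0.10) and the 5p arm 3336 ± 304 against 114 ± 21.4 (4.89 ± 0.10). miR-150, a miRNA of mature lymphocytes, measured 238 ± 54.2 against 20.5 ± 7.41 (3.56 ± 0.14), and miR-1388-5p 149.6 ± 34.1 against 14.7 ± 1.37 (3.33 ± 0.13). None of these 10 overlapped between the organs, but they were picked for their size, and 79.5% of all shared miRNAs did not overlap. In such tissue pieces, fewer cells of a type and less RNA per cell cannot be told apart.

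The largest difference towards muscle belonged to miR-133b, made in muscle together with miR-206. It stood at 4303, 4188, 3536 and 4371 scaled CPM in muscle and at 1.68, 2.67, 4.03 and 0.850 in liver (-10.78 ± 0.28, edgeR adjusted p 1.52e-08). The liver values rest on 4 to 20 reads per library, so the size of the fold is less certain than its direction. Its near-identical relative miR-133a, which acts on muscle growth and differentiation, measured 21417, 19413, 19247 and 20093 in muscle and 47.6, 54.1, 58.2 and 57.8 in liver (-8.53 ± 0.13, edgeR adjusted p 3.20e-09). All 4 muscles lay within a narrow band for both. miR-499, which lies in an intron of the myosin gene MYH7B, measured 658, 571, 534 and 636 in muscle and 6.35, 6.01, 9.67 and 6.37 in liver (-6.40 ± 0.18, edgeR adjusted p 2.08e-08).

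miR-10b, which lies in the HOXD cluster, was the third most abundant miRNA of muscle. It measured 136034, 118522, 111590.3 and 109178 scaled CPM in muscle and 639.6, 233, 373 and 1048 in liver (-7.91 ± 0.41, edgeR adjusted p 5.18e-07). The livers differed several-fold, from control 2 to control 4, whereas the muscles did not. miR-196b, of the HOXA cluster, measured 438 ± 64.5 in muscle and 5.44 ± 1.85 in liver (-6.35 ± 0.15). miR-10a, of the HOXB cluster and 1 base away from miR-10b, showed far less: 2409 ± 18.1 in liver and 4761 ± 920.1 in muscle (-0.96 ± 0.11, edgeR adjusted p 4.88e-05). All 3 shared HOX cluster entries were thus called higher in muscle, as were 40.2% of all shared miRNAs. Without scaling all 3 kept their sign, but the shift of 0.80 brings miR-10a close to 0.

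The main hairpin of the miR-378 entries lies in the gene PPARGC1B, a regulator of mitochondrial metabolism. All 4 shared entries were higher in muscle beyond 2-fold, against 25.1% of all shared miRNAs, ranging from -5.67 to -5.09 with a median of -5.39. miR-378 itself measured 43119, 44580.4, 46186 and 48269 scaled CPM in muscle and 922, 1038, 875 and 758 in liver (-5.67 ± 0.13, edgeR adjusted p 8.64e-09). The lesser entries miR-378b with 371 ± 36.7 against 8.39 ± 1.66 (-5.47 ± 0.14), miR-378-1-5p with 192 ± 15.5 against 4.76 ± 0.367 (-5.32 ± 0.13) and miR-378c with 1682 ± 117 against 49.4 ± 6.14 (-5.09 ± 0.13) had closely similar differences. Reads of such near-identical sequences may be divided among entries in a way that the sources used here do not give, and the same holds for miR-133a and miR-133b, miR-10a and miR-10b, miR-192 and miR-215, and the let-7 and miR-181 members. The tenth largest difference was miR-504, from an intron of FGF13, with 247 ± 26.3 in muscle and 11.2 ± 0.516 in liver (-4.45 ± 0.12). The groups did not overlap for any of these 10, which were likewise picked for their size, nor for 79.5% of all shared miRNAs.

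**Figure D2:**
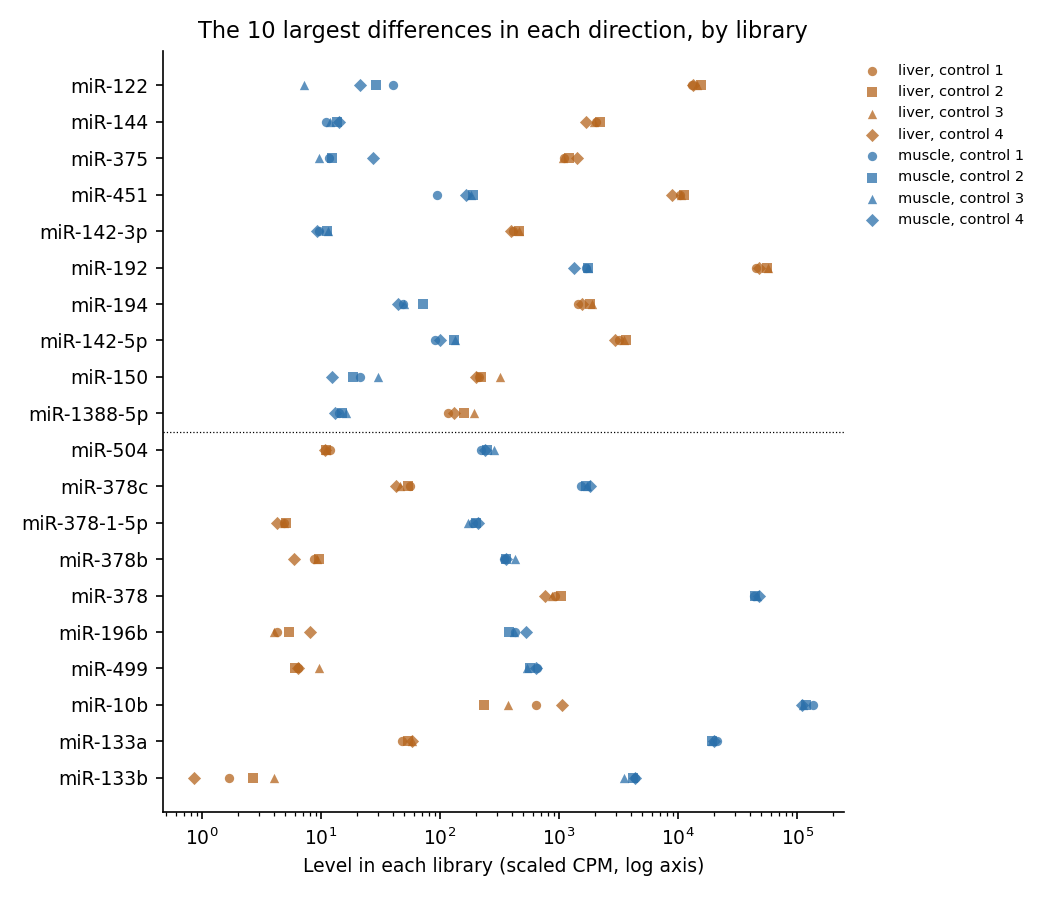
Level in each library (scaled CPM, log axis) of the 10 miRNAs with the largest difference in each direction; colour gives the tissue and the marker shape the fetus. The liver and muscle values are separated in every row, while miR-122 and miR-375 spread among the muscles and miR-10b and miR-133b among the livers.

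Markers of the parenchymal cells matched the tissue labels. List counts here and below stand beside those of all 415 shared miRNAs, of which 44.8% were higher in liver and 40.2% in muscle. Beyond 2-fold, these shares were 22.2% and 25.1%. Of 13 shared entries on the hepatocyte list, 9 were higher in liver and 4 in muscle (5 and 1 beyond 2-fold), with a median of 1.12 against 0.06 over all 415. miR-148a, an abundant liver miRNA that acts on lipid handling, measured 61207 ± 3538 against 22161 ± 2970.3 (1.47 ± 0.09). The list's members miR-33a and miR-33b, which lie inside the SREBP genes and act on cholesterol export, differed by 1.20 ± 0.14 and 2.22 ± 0.14, and miR-101 by 1.12 ± 0.09. The 4 entries higher in muscle were miR-101-1-5p (-1.32), miR-148b (-0.21), miR-455-3p (-0.59) and miR-455-5p (-0.93), of which miR-455 is also known from cartilage. Without scaling miR-148b (0.59) and miR-455-3p (0.21) turned to liver, and the call of miR-148b was also lost without fetus 1, 3 or 4. The summed hepatocyte entries ranged from 128031 to 147867 scaled CPM in liver and from 25881 to 33024 in muscle. All 3 shared entries of the skeletal muscle list were higher in muscle beyond 2-fold, with a summed level of 23316 to 26377 in muscle and 55.6 to 71.9 in liver.

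The blood lists were not uniform. Of the 4 red cell entries, 3 were higher in liver and 1 in muscle, with a median of 3.44. The exception was miR-486, a red cell miRNA that is also made in muscle from the ANK1 gene, with 34294 ± 4079 scaled CPM in liver and 49901 ± 5193 in muscle (-0.54 ± 0.09, edgeR adjusted p 5.50e-04); its sign turned to 0.26 without scaling. Its minor arm miR-486-3p went the other way with 0.82 ± 0.11. miR-486 made up most of the summed level of the list, which overlapped between the organs, at 40134 to 52286 in liver and 44006 to 54697 in muscle. Of 8 white blood cell entries, 5 were higher in liver (4 beyond 2-fold), 1 in muscle and 2 were not called, with a median of 1.48. Of all shared miRNAs, 44.8% were higher in liver (22.2% beyond 2-fold). miR-146a, which restrains innate immune signalling, differed by 2.48 ± 0.12, and miR-342 by 0.47 ± 0.10. miR-155, known from activated lymphocytes and macrophages, was the entry higher in muscle, at -0.42 ± 0.11, and at 0.38 without scaling. The summed white cell level was 4598 to 5521 scaled CPM in liver and 927 to 1057 in muscle.

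Of the 7 endothelial and smooth muscle entries, none differed beyond 2-fold. miR-126-3p, the endothelial miRNA from the EGFL7 gene, measured 1732, 1954, 1602 and 1546 scaled CPM in liver and 1480.3, 1952, 1640.2 and 2242 in muscle, and the groups overlapped (-0.08 ± 0.12, edgeR adjusted p 0.533). Its partner miR-126-5p was called higher in muscle at -0.24 ± 0.08, but the call was lost without fetus 1, 3 or 4 and the sign turned with no scaling or upper-quartile scaling. miR-139 was called higher in liver at 0.51 ± 0.10. Of 4 smooth muscle entries, the 2 of miR-143 were higher in liver, miR-143 itself with 51691 ± 1715 against 35444 ± 2699 (0.55 ± 0.08) and miR-143-5p with 0.69 ± 0.15, while miR-145 (0.06 ± 0.09) and miR-145-3p (-0.16 ± 0.11) were not called. These 2 of 4 higher in liver are near the 44.8% of all shared miRNAs. The smooth muscle median was 0.30, and 1.10 without scaling. The cartilage miRNA miR-140 measured 1519 ± 92.5 in liver and 1431 ± 76.5 in muscle and was not called (0.09 ± 0.08), and its 5p arm was called at 0.71 ± 0.14. Together with miR-126-3p and miR-140, the miRNAs most alike in the 2 organs among 58 with at least 1000 scaled CPM in both were miR-369-3p, with 2497 ± 141 against 2467 ± 202 (0.02 ± 0.09), and miR-30d, with 4227 ± 152 against 4324 ± 332 (-0.03 ± 0.07). Likeness here is relative to the scaling, as the shift of 0.80 shows.

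Most connective tissue markers were the more abundant in muscle on the scaled levels. Of 9 mesenchyme and fibroblast entries, 8 were higher in muscle (6 beyond 2-fold), 1 was not called and none was higher in liver, with a median of -2.97. Without scaling the median was -2.17, and 3 of the 9 entries lay above 0, towards liver. miR-199a-3p, produced with miR-214 from an antisense transcript of the dynamin gene DNM3, measured 16001, 15316, 16009 and 13567 scaled CPM in muscle and 2369.9, 1631, 1622 and 2267 in liver (-2.97 ± 0.14, edgeR adjusted p 3.12e-07). miR-199a-5p (-3.49 ± 0.13), miR-214 (-3.69 ± 0.15) and miR-199b (-2.02 ± 0.10) shared the direction, and the summed list level was 21222 to 24501 in muscle against 2684 to 3952 in liver. Few epithelial markers were shared. The 1 shared entry of the epithelial list, miR-141 of the miR-200 family, measured 36.8, 43.0, 55.4 and 92.0 in liver and 2.76, 9.65, 5.27 and 16.4 in muscle (2.83 ± 0.25, edgeR adjusted p 1.13e-05), with liver control 4 and muscle control 4 the highest of their groups. On the kidney and gut epithelium list, 2 entries were shared and 2, miR-190a (22.3 ± 2.32 CPM) and miR-190b (8.21 ± 2.18 CPM), were listed for muscle alone. miR-204, a miRNA of several epithelia, differed by 2.92 ± 0.12, and miR-215, a relative of miR-192, measured 157, 243, 194 and 712 in liver, again with control 4 highest, and 18.4, 81.7, 27.1 and 36.0 in muscle (2.93 ± 0.39).

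Of 9 shared neuronal and sensory entries, 4 were higher in muscle, all beyond 2-fold, 2 higher in liver and 3 not called, and 40.2% of all shared miRNAs were higher in muscle. The brain and nerve miRNA miR-128 measured 454 ± 50.8 in liver and 2052 ± 100.1 in muscle (-2.18 ± 0.09) and miR-149-5p 32.4 ± 7.26 and 140.5 ± 12.5 (-2.13 ± 0.15); miR-218 (-1.82 ± 0.23), a miRNA of motor neurons, and miR-9 (-2.69 ± 0.38) shared this direction. The sensory miRNA miR-182 was higher in liver with 154, 156, 170.4 and 226 against 29.6, 247, 47.2 and 51.7 (1.44 ± 0.48, edgeR adjusted p 0.0224). Muscle control 2 stood above every liver while the other 3 muscles lay below, so the groups overlapped. The difference was 2.07 without fetus 2, and the call was lost without fetus 1, 3 or 4 and in the fit with no fetus block (edgeR adjusted p 0.148). The same library was the highest muscle for miR-9, at 49.2, 186, 37.3 and 60.1 in controls 1 to 4 (difference -2.21 without fetus 2), and for miR-215, and whether the piece held other tissue was not tested.

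The let-7 family, which restrains proliferation and rises as cells differentiate, was higher in muscle almost throughout. Of 14 shared entries, 13 were higher in muscle, 11 beyond 2-fold, and 1 (miR-98-3p) was not called, with a median of -1.79, and of -0.99 without scaling. let-7i measured 18249, 19133, 18427 and 18866 scaled CPM in muscle and 2043, 1747, 1851 and 1851 in liver (-3.32 ± 0.09, edgeR adjusted p 1.52e-08). let-7c and let-7b had differences of -3.89 ± 0.15 and -2.79 ± 0.10, let-7a-5p, with 3576 ± 357 in liver and 11873 ± 373 in muscle, of -1.74 ± 0.09, and let-7f of -1.23 ± 0.07. miR-99, miR-100 and miR-125, which share transcripts with let-7 members, showed 9 of 10 entries higher in muscle, 5 beyond 2-fold, and 1 not called, with a median of -1.63. miR-125b, a relative of the worm miRNA lin-4, measured 1062 ± 168 in liver and 4523 ± 446 in muscle (-2.10 ± 0.11), miR-99b 4459.9 ± 429 and 10103 ± 1567 (-1.17 ± 0.13), and miR-100 4225 ± 478 and 6853 ± 697 (-0.70 ± 0.11, which became 0.10 without scaling).

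The miR-17 families and the miR-15 and miR-16 family were mostly higher in liver, and the related miR-424 cluster was mostly higher in muscle. Of 17 shared entries of the miR-17 families, which come from the MYC-driven miR-17-92 cluster and its paralogs, 14 were higher in liver (9 beyond 2-fold), 1 in muscle and 2 were not called, with a median of 1.27. miR-92a measured 44233, 46904, 43213 and 40457 scaled CPM in liver and 17474, 16323, 21039 and 17279 in muscle (1.28 ± 0.10, edgeR adjusted p 4.16e-06), miR-93 1336 ± 123 against 357 ± 40.7 (1.91 ± 0.08) and miR-25 6511 ± 483 against 3539 ± 72.4 (0.88 ± 0.08). The entry higher in muscle was miR-363 (-0.91 ± 0.10) of the paralogous cluster on the X chromosome. The miR-15 and miR-16 family, which targets cyclins and BCL2, had 6 of 7 entries higher in liver (5 beyond 2-fold) and 1, miR-195, not called, with a median of 1.67. miR-16b measured 3938 ± 365 against 885 ± 92.3 (2.16 ± 0.07), miR-16a 1352 ± 80.8 against 534 ± 139 (1.37 ± 0.11) and miR-15a 581 ± 42.5 against 104 ± 19.2 (2.49 ± 0.10). In the related cluster of miR-424 and miR-503 on the X chromosome, 6 of 8 entries were higher in muscle (5 beyond 2-fold), with 2 not called and a median of -2.04. In it, miR-542-3p measured 501 ± 28.0 in liver and 2281 ± 311 in muscle (-2.18 ± 0.10), miR-450a differed by -0.86 ± 0.10, and miR-450b was not called (-0.09 ± 0.09). The other entry not called was miR-424-5p, with 426 ± 17.1 in liver and 426 ± 27.8 in muscle (0.00 ± 0.08).

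All 7 shared miR-181 entries, a family that acts in lymphocyte and muscle differentiation, were higher in muscle (6 beyond 2-fold), with a median of -2.44. miR-181a measured 59434, 61862, 65791 and 59082 in muscle and 13044, 13061, 17232 and 13217 in liver (-2.13 ± 0.08, edgeR adjusted p 1.24e-07), where control 3 was the highest liver. miR-181c differed by -2.44 ± 0.09, and miR-181b, with 1587 ± 233 against 2391 ± 165, by -0.60 ± 0.09, which became 0.20 without scaling. Of 7 entries of the miR-23, miR-24 and miR-27 clusters, 5 were higher in muscle, all beyond 2-fold, and 2 were not called, with a median of -1.29; miR-23b-3p differed by -1.29 ± 0.12 and miR-27a-3p by -1.15 ± 0.08, while miR-27b, the most abundant of them, measured 20356 ± 1401 against 21697 ± 1642 (-0.09 ± 0.08). The miR-26 family was split: miR-26a, the fifth most abundant miRNA of muscle, measured 55096, 71564, 50858 and 77519 there and 28074, 30673, 28864 and 27150.0 in liver (-1.13 ± 0.12, edgeR adjusted p 3.54e-05), whereas miR-26b (0.48 ± 0.08) and miR-26b-3p (0.53 ± 0.12) were higher in liver and miR-26a-2-3p was not called (0.26 ± 0.13).

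In the miR-30 family, 5 of 10 entries were higher in liver, near the 44.8% of all shared miRNAs, and 2 in muscle, none beyond 2-fold. miR-30e-5p measured 7256 ± 514 in liver and 3527 ± 254 in muscle (1.04 ± 0.07), and miR-30a-5p, with 20566 ± 2020.3 against 35931 ± 3416 (-0.81 ± 0.10), went the other way. The miR-130 and miR-301 family gave 1 entry higher in liver, miR-130b-5p (0.44 ± 0.11), 2 higher in muscle, miR-130a (-0.82 ± 0.07) and miR-301a (-0.23 ± 0.07), and 2 not called, miR-130b (-0.04 ± 0.09) and miR-301b (0.04 ± 0.11). The sign of miR-301a turned with no scaling (0.57) and with upper-quartile scaling (0.16), and its call was lost without fetus 4. miR-222, which targets the cell cycle inhibitor CDKN1B, differed by 1.94 ± 0.14, its relative miR-221 was not called at 0.17 ± 0.13, and miR-221-5p was called at 0.67 ± 0.24, a call lost with no block and without fetus 1 or 4. miR-34c differed by 1.36 ± 0.15, and the hypoxia miRNA miR-210 was not called, with 130.4 ± 9.59 in liver and 135 ± 10.6 in muscle (-0.05 ± 0.09). Of 17 shared entries of the ruminant families miR-2284 and miR-2285, 12 were higher in liver (7 beyond 2-fold) and 2 in muscle, with a median of 1.06. Their most abundant member, miR-2284x, measured 770.3 ± 48.3 in liver and 1260.5 ± 31.3 in muscle (-0.71 ± 0.08), and turned to 0.09 without scaling, while miR-2284w-3p differed by 1.60 ± 0.10 and miR-2284z by 2.02 ± 0.10.

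**Figure D3:**
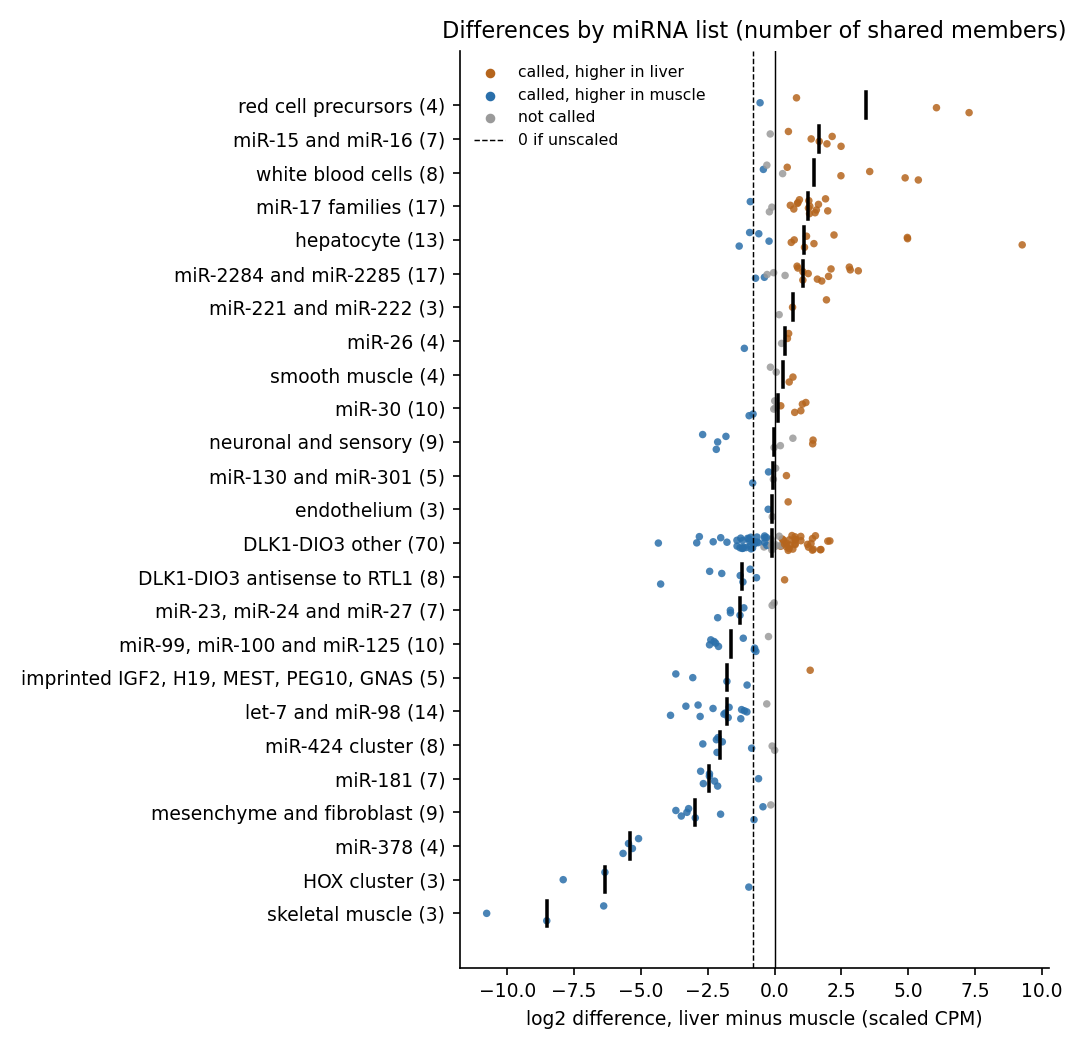
Log2 difference, liver minus muscle, of each shared member of the miRNA lists with at least 3 shared members, coloured by call; black ticks are list medians and the dashed line marks where 0 would lie without scaling. The lists run from the red cell list, with a median of 3.44, to the skeletal muscle list, with -8.53, and the 70 entries of the DLK1-DIO3 list spread to both sides of 0.

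Since scaling moves every difference by nearly the same amount, the list medians were also read without it. Those of the mesenchyme (-2.17), let-7 (-0.99), miR-99, miR-100 and miR-125 (-0.84), miR-181 (-1.64), miR-424 (-1.24), miR-23, miR-24 and miR-27 (-0.50), HOX (-5.55) and miR-378 (-4.60) lists were still below 0. Single entries of these lists lay above 0 without scaling. They were 3 of 9 in the mesenchyme list, 1 of 14 in let-7 and 4 of 10 in miR-99, miR-100 and miR-125. In miR-181 it was 1 of 7, in miR-424 2 of 8, in miR-23, miR-24 and miR-27 2 of 7, and in HOX and miR-378 0. The medians of the endothelial (0.71 in place of -0.08), neuronal (0.78 in place of -0.02) and miR-130 and miR-301 (0.75 in place of -0.04) lists moved above 0.

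The largest group from 1 locus was that of the DLK1-DIO3 domain, an imprinted region whose miRNAs are made from the maternal chromosome and are numerous in placental mammals. Its entries, 78 of them shared and 5 listed for 1 organ alone, took 19.9 ± 0.154% of the listed reads in liver, with 19.8, 19.9, 20.2 and 19.8% in controls 1 to 4. In muscle they took 39.7 ± 1.37%, with 41.6, 39.0, 39.6 and 38.6%. The summed share was thus higher in every muscle than in any liver. As shares of all listed reads, 2 entries, miR-381 and miR-127, held the difference. The other entries together took 18.1 ± 0.294% in liver and 18.4 ± 0.448% in muscle, and the libraries overlapped. The total behind these shares includes miR-381 and miR-127, which took 10.7% each in muscle but 0.913% and 0.973% in liver. On the scaled levels, divided by 1.25 to 1.39 in liver and 0.74 to 0.77 in muscle, the sum of the other entries was higher in muscle. Of the 78 shared entries, 31 were higher in liver, 39 in muscle and 8 were not called, with a range of -4.35 to 2.07 and a median of -0.30. On the scaled levels somewhat more were thus higher in muscle than in liver, where the shares of all shared miRNAs were 40.2% and 44.8%. Without scaling, 48 of the 70 entries outside the RTL1 antisense transcript lay above 0 in place of 34, and their median was 0.68 in place of -0.11. Of the 8 entries of that transcript, 2 lay above 0 in place of 1. Which direction held more entries thus depended on the scaling.

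The 2 most abundant miRNAs of muscle both belong to this domain. miR-381 measured 144529, 141257, 140569 and 137114 scaled CPM in muscle and 6836, 7591, 7376 and 5950.0 in liver (-4.35 ± 0.09, edgeR adjusted p 7.17e-09). miR-127, which is cut from the transcript antisense to RTL1 and is perfectly complementary to that retrotransposon-derived gene's messenger RNA, measured 169805, 128535, 132894 and 131997 in muscle, with control 1 well above the others, and 9188, 7473, 6407 and 6389.5 in liver (-4.26 ± 0.09, edgeR adjusted p 7.17e-09). Of the 8 entries antisense to RTL1, 7 were higher in muscle (5 beyond 2-fold) and 1 in liver. miR-432 differed by -1.98 ± 0.09 and miR-136-3p by -0.68 ± 0.08 (0.12 without scaling), and the exception was miR-136 (0.37 ± 0.08), whose call was lost without fetus 2 (0.27). Elsewhere in the domain, miR-410 (-2.30 ± 0.08) and miR-655 (-2.82 ± 0.13) were higher in muscle. Other entries of the same domain were higher in liver: miR-411c-3p measured 650.4 ± 51.2 against 155 ± 15.7 (2.07 ± 0.10), miR-134, known from dendritic spines of neurons, differed by 1.71 ± 0.11, and miR-494 by 1.42 ± 0.09.

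Of 5 shared entries from other imprinted genes, 4 were higher in muscle and 1 in liver. miR-483, which lies in an intron of the growth factor gene IGF2, was the one higher in liver, with 373, 473, 576 and 513 scaled CPM against 187, 167, 211 and 197 in muscle (1.33 ± 0.11, edgeR adjusted p 6.54e-06). Both arms of miR-335, from an intron of MEST, were higher in muscle: miR-335-3p measured 1264, 1236, 1335 and 1087 there and 124, 97.3, 80.8 and 82.0 in liver (-3.70 ± 0.13, edgeR adjusted p 5.98e-08), and miR-335 differed by -3.06 ± 0.11. miR-296-5p and miR-296-3p, from the GNAS domain, differed by -1.78 ± 0.11 and -1.03 ± 0.08.

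A further 148 miRNAs were listed for liver alone and 24 for muscle alone, which took 0.78 to 0.90% of the liver reads and 0.27 to 0.29% of the muscle reads. No value is known for them in the other organ, so they were not tested, and an absent entry is not a count of 0. Their levels are CPM without scaling. The liver entries had a median of 12.2 CPM and the muscle entries of 16.3, and 15 and 4 reached 100 CPM. The leading liver entries were the minor arms miR-144-5p (1714 ± 92.4, SD, n = 4) and miR-122-3p (1061 ± 70.8) of the 2 miRNAs with the largest differences, then miR-31 (547 ± 68.5), an epithelial miRNA, and 2 entries with temporary names, of which miR-temp61-5p varied among livers (444 ± 252). Epithelial miR-429 (272 ± 14.3) and miR-200a (246 ± 28.5), the antifibrotic miR-29a (298 ± 24.7), the granulocyte miRNA miR-223 (111 ± 4.50) and miR-34a (82.2 ± 17.5) were also listed for liver alone.

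The muscle side of that set was led by muscle-specific miRNAs. miR-208b, which lies in an intron of the slow myosin gene MYH7, measured 1072, 910.0, 643 and 957 CPM in muscles 1 to 4. miR-206, which promotes the differentiation of muscle precursors, measured 686, 768, 974 and 769, and miR-196a of the HOX clusters 463, 427, 456 and 483. Next came miR-1 (254 ± 26.2), and miR-133a-5p (54.9 ± 1.39). All 6 entries of the skeletal muscle list outside the shared set were thus listed for muscle. Of the 9 such epithelial entries, 8 were listed for liver and 1, the skin miRNA miR-205 (24.4 ± 17.4), for muscle. This is close to the division of all entries listed for 1 tissue only, 148 for liver and 24 for muscle.

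The control 1 to 4 libraries of kidney and tongue place these levels beside 2 further organs, in CPM without scaling and without a test. miR-122 measured 18567 ± 812 (SD, n = 4) in liver, 18.4 ± 10.2 in muscle and 10.5 ± 8.73 in kidney. miR-192 measured 67752 ± 5155 in liver and 22186 ± 1025 in kidney, above 2063 ± 415 in tongue and 1241 ± 139 in muscle. Tongue, which is largely skeletal muscle, overlapped muscle for miR-133a, with 14732 ± 2148 against 15192 ± 610.1, and for miR-206, with 648 ± 81.1 against 799 ± 123. The myosin gene miRNAs were lower in every tongue library than in any muscle library: miR-208b stood at 23.8 ± 13.8 in tongue and 895 ± 182 in muscle, and miR-499 at 14.8 ± 3.95 and 455 ± 42.4. miR-10b was highest in kidney at 284405 ± 3307, followed by muscle at 89989.6 ± 7567, tongue at 24720.2 ± 7169 and liver at 773 ± 516, 4 levels whose ranges were apart. miR-451 was 13509 ± 701 in liver and between 69.7 and 335 in the libraries of the other 3 organs.

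The 2 arms of a hairpin were compared within each library, which does not depend on scaling. For 89 precursors with both arms in both tables, the log2 ratio of 5p to 3p reads differed between the organs in 55 (61.8%) by limma at an adjusted p of 0.05: the 5p share was higher in liver in 26 (29.2%) and in muscle in 29. The changes were mostly small, with a median absolute change of 0.48 and 17 over 2-fold. miR-127 had the largest one. Its 5p arm made up 5.67, 7.23, 8.12 and 7.71% of its reads in the livers and 0.739, 0.971, 0.906 and 1.01% in the muscles (3.08 ± 0.08, limma adjusted p 3.12e-06), so the 3p arm was the main one in both. The 5p share of miR-424 was 89.3, 88.0, 89.9 and 89.0% in liver and 65.2, 65.0, 64.2 and 64.2% in muscle (2.16 ± 0.08, limma adjusted p 1.28e-05), and miR-541 (93.7% and 81.8%, 1.71 ± 0.11) and miR-381 (0.125% and 0.0462%, 1.45 ± 0.07) also had more 5p in liver.

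In the other direction, the largest changes were in miR-98, with 96.6% from the 5p arm in liver and 99.4% in muscle (-2.58 ± 0.26), miR-154b (85.9% and 94.2%, -1.42 ± 0.13), miR-486 (99.90% and 99.96%, -1.36 ± 0.08), miR-493 and miR-874 (17.0% and 32.6%, -1.24 ± 0.09). The more abundant arm differed between the organs in 4 precursors, all called. miR-106b, a member of the miR-17 families, gave 52.0, 52.8, 51.5 and 50.8% from the 5p arm in the livers and 25.1, 24.1, 23.8 and 25.8% in the muscles (1.71 ± 0.08, limma adjusted p 2.18e-05). miR-493 of the DLK1-DIO3 domain gave 44.0, 42.6, 43.3 and 42.3% and 63.9, 63.9, 59.9 and 68.9% (-1.25 ± 0.11, limma adjusted p 2.46e-04), and miR-377 of the same domain 35.9% and 54.9%. The last was miR-335, with 57.4% and 46.5%. All 4 livers lay on the other side of 50% from all 4 muscles in these 4 precursors. Both arms passed the level test in 66 precursors, in the same direction in 60 and in opposite directions in 6.

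**Figure D4:**
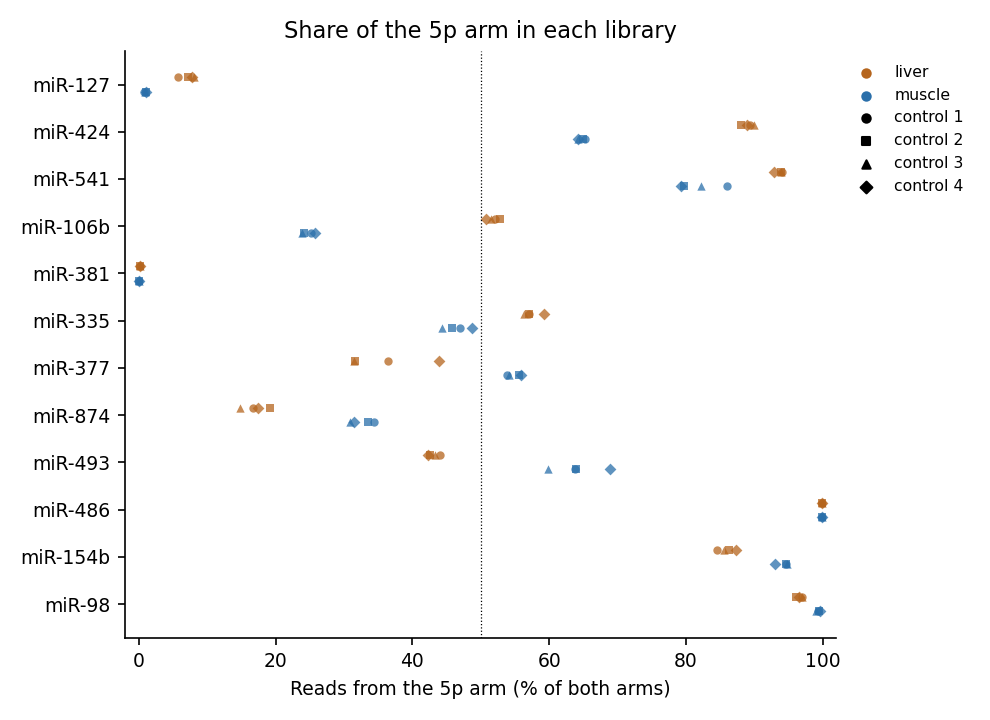
Share of each precursor's reads that come from its 5p arm (% of both arms) in each library, for the 5 largest called changes in each direction and the precursors whose main arm differs; colour gives the tissue, marker shape the fetus, and the dotted line 50%. miR-106b, miR-335, miR-377 and miR-493 have their liver and muscle libraries on opposite sides of the line.

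The same tissue comparison in the LOS fetuses gave 335 calls (80.7%), of which 170 were higher in liver and 165 in muscle. Of the 353 control calls, 343 had the same sign there and 320 were also called in the same direction, which is 90.7% of the control calls and 95.5% of the LOS calls. Of the 196 beyond 2-fold in controls, 194 had the same sign. miR-122 differed by 10.58 ± 0.44 in LOS fetuses, miR-451 by 6.31 ± 0.18, miR-133b by -9.14 ± 0.43, miR-10b by -7.58 ± 0.22 and miR-381 by -4.28 ± 0.13. These are other animals measured in the same 2 tables.

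The test of whether the tissue difference itself changed in LOS called 0 of 415 (0.0%) in edgeR, with a lowest adjusted p of 0.135 and 56 at an unadjusted p under 0.05, while DESeq2 called 19. Among the lowest p were let-7f, whose difference was -1.23 ± 0.07 in controls and -0.46 ± 0.15 in LOS (change 0.74 ± 0.17, edgeR adjusted p 0.135), let-7a-5p with -1.74 ± 0.09 and -1.08 ± 0.13 (change 0.62 ± 0.15, adjusted p 0.135), and miR-665 with 0.17 ± 0.09 and -0.37 ± 0.11 (change -0.57 ± 0.13, adjusted p 0.135). These 3 were picked after their values were seen. Without the LOS 2 fetus, edgeR called let-7a-5p (change 0.75), let-7f (0.90) and let-7g (0.92), and without LOS 4 it called 2 entries with temporary names.

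**Figure D5:**
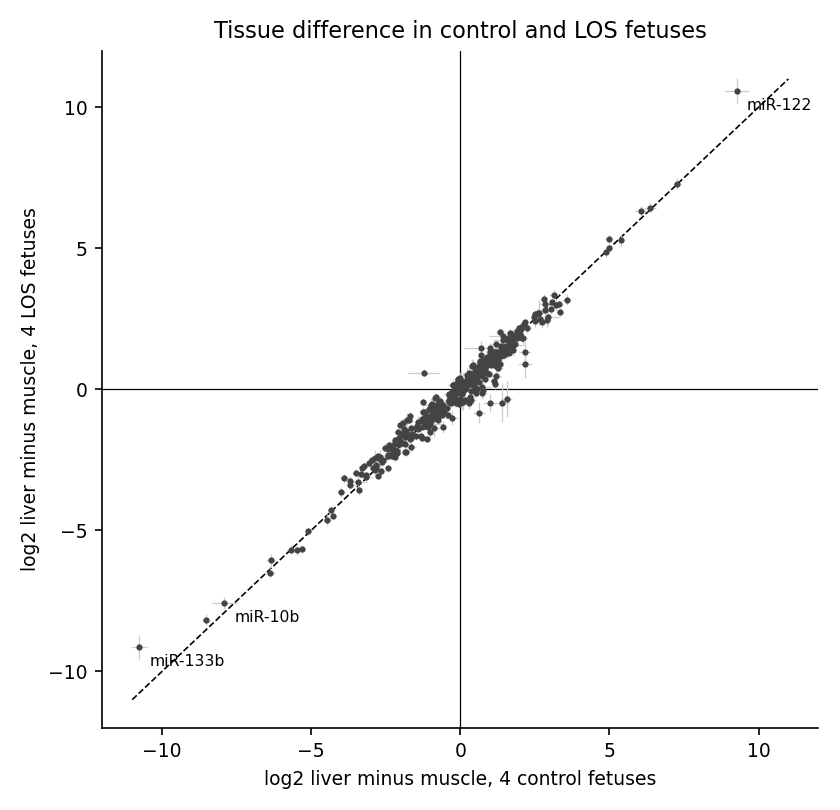
Log2 difference between liver and muscle in the 4 control fetuses (x axis) and the 4 LOS fetuses (y axis) for the 415 shared miRNAs, with standard errors as grey bars and a dashed line of equality. Most points lie along the line from miR-133b at the lower left to miR-122 at the upper right.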

How the data were processed

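Small RNA libraries were made from 2 µg of TRIzol RNA with the Illumina TruSeq kit and gel selection at 140 to 160 bp, per the labels' protocols. The authors deposited raw counts of reads per miRNA, in 1 table for each of 4 tissues. The submitters' processing notes name Bowtie and the UMD3.1 build, and for the counting step, annotation and listing filter the sources used here give nothing. No listed count was 0. Some mature sequences come from several hairpins, and the labels do not say that replicates of a number are 1 animal: liver and muscle of a number were taken as 1 fetus. Deviations from the group means correlated at 0.27, 0.09, 0.12 and 0.11 between liver and muscle of fetus 1 to 4, each fetus best with itself. The highest correlation of each liver with the muscle of another fetus was -0.02, 0.07, 0.01 and 0.07, so the margin was small for fetuses 2 and 4.

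Counts were tested as deposited with edgeR 4.0.16 in R 4.3.3: trimmed-mean (TMM) scaling on the 415 shared miRNAs with all listed reads as library size, a fetus block, the quasi-likelihood test, and glmTreat against a log2 difference of 1, with Benjamini-Hochberg adjustment over the 415. A tissue by LOS interaction was fitted over 16 libraries. Arm ratios, log2((5p + 0.5)/(3p + 0.5)), were tested with limma 3.58.1 and the fetus block. The alternatives were no block, other scalings, a mean CPM of at least 10, removal of the 3 most abundant miRNAs per tissue, limma-voom, DESeq2 1.42.0, a pseudocount of 5 or at least 50 counts per arm for the ratios, and leaving out each fetus. The tests were checked on simulated data with known differences. No pair of libraries was a duplicate.

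Named miRNAs are the 10 largest differences each way among those beyond 2-fold with all 4 fetuses agreeing and at least 100 CPM in the higher tissue (temporary names only counted, 8 of 57 eligible higher in liver and 2 of 79 in muscle), the 5 most abundant per tissue, the 3 most abundant members of each of 31 lists (all, up to 6), the 4 smallest differences at 1000 CPM or more in both, the 5 highest listed for 1 tissue only and the 5 largest arm changes each way. Further members were named after their values were seen, such as miR-214, let-7b, let-7c, miR-33a, miR-155, miR-363 and miR-655. The members and lists were chosen with earlier results of these data known. Lists are described by counts and medians, with no test of their own. Whether samples of a group came from separate animals is read from their numbers, so the p-values speak for these samples only. In the fits with a fetus block, they set each difference against the variation left after the block.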

Additional observations from a re-analysis of the deposited data

Results flagged for a closer look

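In 23 of 298 groups of 4 libraries behind the named values, 1 library stood apart from the other 3, where chance alone gives about 1 in 20. Muscle control 2 was the high one for miR-182, at 247 scaled CPM against 29.6 to 51.7, for miR-9 at 186 against 37.3 to 60.1, for miR-15a at 133 against 93.9 to 96.4, and for miR-210 at 151 against 128 to 132. Muscle control 4 was high for miR-375 at 27.5 against 9.58 to 12.4 and for miR-362-5p at 173 against 151 to 153. In muscle control 1, miR-127 was high at 169805 against 128535 to 132894 while let-7f was low at 12966 against 14260 to 14482 and miR-218 at 48.0 against 96.0 to 104. Muscle control 3 was high for miR-378b at 426 against 345 to 357 and for miR-130b-5p at 81.4 against 69.6 to 71.2.

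Among the livers, control 4 was high for miR-215 at 712 against 157 to 243 and low for miR-500-3p at 437 against 543 to 564 and for miR-665 at 1439 against 1747 to 1787. Liver control 3 was high for miR-181a at 17232 against 13044 to 13217, for miR-181b at 1934 against 1436 to 1511, and for miR-499 at 9.67 against 6.01 to 6.37, the last on 27 to 48 reads per library. Liver control 2 was high for miR-146a at 97.0 against 88.0 to 89.3 and for miR-20a at 238 against 188 to 195, and liver control 1 low for miR-140-5p at 29.1 against 36.1 to 37.4. Of the 5p shares, those of miR-154b in muscle control 4 (93.1% against 94.6 to 94.8%), of miR-381 in muscle control 3 (0.0417% against 0.0475 to 0.0480%) and of miR-541 in liver control 4 (92.9% against 93.9 to 94.1%) were the low ones.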

How the results depend on the processing

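The count of 353 calls stayed between 338 and 373 in every alternative run for it, and that of 196 beyond 2-fold, which was not run in DESeq2, between 176 and 251. Scaling set the split: without it, 182 were higher in liver and 69 in muscle beyond 2-fold, and with upper-quartile scaling 133 and 86. Of the 353 calls, 299 kept their direction and call without scaling, and 33 turned sign, none of them beyond 2-fold. The signs that turned among the named values, from or to a called difference, were, without scaling, those of miR-411a (0.016), miR-486 (0.26), miR-126-5p (0.56), miR-126-3p (0.71), miR-145-3p (0.64), miR-136-3p (0.12), miR-450b (0.71), miR-30d (0.77), miR-100 (0.10), miR-27b (0.71), miR-181b (0.20), miR-301a (0.57), miR-130b (0.75), miR-210 (0.75), miR-2284x (0.086), miR-155 (0.38), miR-148b (0.59), miR-455-3p (0.21), miR-195 (0.64) and miR-98-3p (0.50). The medians of the endothelial (0.71), neuronal (0.78), miR-130 and miR-301 (0.75) and DLK1-DIO3 (0.68, outside the RTL1 antisense transcript) lists turned with them. With upper-quartile scaling they were miR-148b (0.18), miR-126-5p (0.15), miR-126-3p (0.30), miR-450b (0.30), miR-30d (0.36), miR-27b (0.30), miR-301a (0.16), miR-130b (0.34), miR-210 (0.34) and the medians of the same lists (0.30, 0.37, 0.34 and 0.27). Of 136 named values, 20 thus turned sign without scaling, and a further 7 lost their call and 8 gained one. With upper-quartile scaling these numbers were 9, 4 and 8. The shift of 0.80 without scaling brings differences towards muscle of about that size, such as those of miR-30a-5p and miR-130a, close to 0. Values close to 0 that were never called, such as miR-145 and miR-424-5p, crossed it in several alternatives. Trimmed-mean scaling assumes that most miRNAs do not differ, whereas 85.1% were called here, and most were also called with every other scaling. Which scaling places 0 rightly was not tested, so the split between the directions holds only relative to the scaling.

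The fit with no replicate block called 351, of which 182 were higher in liver and 169 in muscle, with 199 beyond 2-fold, and kept 347 of the 353. Without the block, the calls of miR-182 (0.91) and miR-221-5p (0.64) were lost. Leaving out 1 fetus gave 338 to 343 calls, 187 to 194 beyond 2-fold, 45 to 52 arm ratio calls and 318 to 337 calls in LOS fetuses. It ended the calls of miR-182 without fetus 1, 3 or 4, of miR-126-5p and miR-148b likewise, of miR-221-5p without fetus 1 or 4, of miR-136 without fetus 2 (0.27) and of miR-301a without fetus 4 (-0.19). The tissue difference in LOS against controls went from 0 calls to 1, below 0, with no replicate block (miR-665, -0.57), to 2 above 0 at a mean CPM of at least 10 (let-7a-5p and let-7f), and to 19 with DESeq2, 11 above and 8 below 0. Leaving out 1 fetus gave 0 to 3, with 3 above 0 without LOS 2 and 2 below 0 without LOS 4; the cause was not tested. Arm ratio calls were 55 with no block, 58 with a pseudocount of 5 and 44 of 67 with at least 50 counts per arm. Liver values of a few reads limit the largest folds.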

Other observations

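A group of miRNAs on no list also differed as a block, and was chosen after its values were seen. The entries miR-188, miR-362, miR-500, miR-502, miR-532 and miR-660, which lie together in the chloride channel gene CLCN5 on the X chromosome, number 11 among the shared miRNAs. All 11 were higher in muscle beyond 2-fold, against 25.1% of all shared miRNAs, from -1.47 to -3.40 with a median of -2.61. miR-660 measured 29588, 27901, 33696 and 28185 scaled CPM in muscle and 3919.6, 4367, 4811 and 3749 in liver (-2.83 ± 0.08, edgeR adjusted p 3.15e-08). miR-500-3p differed by -3.15 ± 0.12 and miR-532 by -2.18 ± 0.08. In none of the 11 did the organs overlap, which was also so for 79.5% of all shared miRNAs.

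miR-22-3p, one of the more abundant miRNAs of liver, measured 28955, 32286, 31956 and 31272 in liver and 8648, 9919, 9245 and 8565 in muscle (1.78 ± 0.07, edgeR adjusted p 1.62e-07). Of 34 shared entries with temporary names, 24 were higher in liver and 3 in muscle, where 44.8% and 40.2% of all shared miRNAs were, with a median of 1.06 against 0.06 over all shared miRNAs. The most abundant was miR-temp63-3p, with 21588 ± 921 in liver and 3560.0 ± 641 in muscle (2.62 ± 0.12). A further 29 temporary names were listed for liver alone and 0 for muscle alone.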
